A study of Mus musculus with 18 samples.

Results

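The replication-dependent histone genes were followed across sorted epithelial cells and crypts of the mouse colon. The members were all genes listed in both deposited tables under the older cluster symbols, whose names begin with Hist1h, Hist2h, Hist3h or Hist4h, which gave 70 of 52636 genes. Their products are the linker histone H1 (6 genes), which sits on the DNA between nucleosomes, and the core histones H2A (20 genes), H2B (19 genes), H3 (12 genes) and H4 (13 genes), which form the nucleosome itself. Of the 70 genes, 67 are annotated as protein coding and 3 as pseudogenes.

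These genes supply the histones that package newly copied DNA, so their transcripts accumulate in S phase and are degraded when replication ends. In place of a poly(A) tail, their mRNAs end in a short stem-loop that the protein SLBP binds, and the factor NPAT activates their transcription at nuclear bodies that gather around the gene clusters. Replacement variants come from separate genes outside the clusters, and some, such as H3.3, are made from polyadenylated mRNAs through the whole cell cycle. In the intestinal epithelium, dividing cells lie in the lower crypt, while enteroendocrine cells are rare hormone-producing cells that have mostly left the cycle.

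The study asked what the acetate and propionate receptor Olfr78 does in the colon epithelium, and RNA was sequenced in 18 libraries, 6 of sorted cells and 12 of crypts. From the Olfr78-GFP line, in which a GFP and tauLacZ cassette takes the place of the coding exon in every tissue, there were 2 pools of Epcam+ve/GFP+ve cells from heterozygous (HE) mice and 2 from homozygous knockout (KO) mice, each pool made from 2 mice of 4 to 7 months. The sorted controls were 2 samples of Epcam+ve/GFP-ve cells taken from 1 wild-type (WT) mouse, so they carried no GFP allele and give no spread between animals. Crypts came from 2 WT and 5 KO mice of that line, and from 3 eControl and 2 eKO mice of the Vil1Cre/+-Olfr78fx line, 1 mouse per library. In eKO mice Cre under the Villin promoter removes the floxed Olfr78 exon in epithelial cells only, and the eControl mice lack either Cre or the floxed allele. The ages of the crypt mice are not given in the sources used here.

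Values are in CP20M, a gene's reads per 20000000 reads counted on genes. The recovered depth was 532704 to 2237486 reads on genes in the sorted libraries and 6175306 to 10995365 in the crypts. The first GFP+ve knockout pool was the shallowest, where 1 read was worth 37.5 CP20M against 8.94 to 13.3 in the other sorted libraries and 1.82 to 3.24 in the crypts, and its histone genes together had 735 reads. Olfr78 itself stood at 4822 and 4401 CP20M in the heterozygous pools and 977 and 837 in the knockout pools, at 88 and 111 in WT crypts and 7 to 42 in KO crypts. The labels call all 6 sorted libraries enteroendocrine, but chromogranin A (Chga), a granule protein of those cells, was at 3504 and 3380 CP20M in the Epcam+ve controls against 107136 to 304540 in the 4 GFP+ve pools. The second eKO mouse carries the genotype tag WT/HO, as does the second eControl mouse, while the other eControl mice share another tag. The Olfr78 level of the second eKO mouse was 73 CP20M against 61 to 124 in the eControls and 21 in the other eKO mouse. This mouse, the second eKO, was grouped by its title, and results that rest on it are also given without it.

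The names divide the genes into 4 groups by place in the mouse genome (GRCm38). On chromosome 13, 56 members carry Hist1 names, of which 55 lie within chr13:21715763-23934851 and the processed pseudogene Hist1h2al lies apart from them at chr13:51202727-51203065. Hist2 holds 10 at chr3:96219865-96270132, Hist3 holds 3 at chr11:58948920-58956830 and Hist4 is the single gene Hist4h4 at chr6:136801553-136804415. In 65 of the 70, the annotated transcripts form a single exon block. Members resemble each other closely: 63 share at least 1 stretch of 100 bases with another gene, and in 26 over 50% of such stretches are shared, so reads of those genes can be split between copies or dropped in counting. How multiply mapped reads were treated is not given in the sources used here.

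The stem-loop that ends these mRNAs was searched by its shape in the annotated transcripts, as a stem of 6 base pairs that opens with GG and a loop of 4 bases. It was found in 46 of 70 genes and in 8 spellings. The commonest was present in 26 genes, and the next 2 in 7 and 6. One gene per spelling is shown to show which letters vary, each with 5 bases on either side, in capitals for the stem-loop, from the GRCm38 transcripts and 5′ to 3′ on the strand of the gene.
Hist1h1c (chr13:23739507-23739532, plus strand): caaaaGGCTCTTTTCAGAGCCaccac
Hist1h4d (chr13:23581945-23581970, plus strand): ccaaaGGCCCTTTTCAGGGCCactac
Hist1h3f (chr13:23544927-23544952, plus strand): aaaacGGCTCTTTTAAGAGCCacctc
Hist1h4b (chr13:23757361-23757386, plus strand): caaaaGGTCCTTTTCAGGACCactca
Hist2h4 (chr3:96262934-96262959, minus strand): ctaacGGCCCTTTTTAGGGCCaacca
Hist1h3g (chr13:23535884-23535909, plus strand): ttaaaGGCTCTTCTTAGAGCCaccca
Hist1h4a (chr13:23760795-23760820, minus strand): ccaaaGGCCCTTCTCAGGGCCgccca
Hist2h2ac (chr3:96220413-96220438, minus strand): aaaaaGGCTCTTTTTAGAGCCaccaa
Within the pairing and the fixed letters that the search required, the stem had 3 spellings and the loop had 5. Of the 24 transcript models without a match, 16 end at the stop codon, so the region after the coding sequence is not in them. The models run on for 3 to 4884 bases after the stem-loop (median 91), and the longest tail belongs to Hist1h1d, whose model has 7425 bases in all.

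Promoters were taken from RefSeq (GRCm38.p6), which matched 61 of the 70 genes, as windows of 250 bases before to 50 after the start. The CCAAT motif, read on both strands, was present in 52 of the 61 (85.2%) against 37.4% of all 32851 promoters, and TATAAA in 35 (57.4%) against 13.6%. All matched H1, H2A, H2B and H3 promoters held CCAAT, but only 3 of 12 H4 promoters did. The octamer ATGCAAAT, a known element of H2B promoters, was found in 6 of 16 H2B and 7 of 17 H2A promoters and in none of the others, for a share of 21.3% against 1.74% of all promoters. The motif AAACACA, known from H1 promoters, was present in 5 of 6 H1 promoters and in 14.8% of the histone set against 7.18% of all. In 14 neighbouring pairs an H2A and an H2B gene point away from each other with 172 to 305 bases between their annotated starts. The windows of such a pair can cover the same bases, so the same motif can be counted for both genes.

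The windows from 120 to 21 bases before the start are shown for the 4 genes that passed both thresholds in sorted cells and for Hist1h1c, an H1 gene with a smaller difference, with the matched motifs in capitals.
Hist1h1a (chr13:23763548-23763647, plus strand): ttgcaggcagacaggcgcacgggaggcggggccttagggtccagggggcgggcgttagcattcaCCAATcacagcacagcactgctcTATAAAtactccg
Hist1h1b (chr13:21780646-21780745, minus strand): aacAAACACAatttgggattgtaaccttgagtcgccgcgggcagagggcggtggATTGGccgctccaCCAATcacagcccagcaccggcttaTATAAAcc
Hist1h2bn (chr13:21753956-21754055, plus strand): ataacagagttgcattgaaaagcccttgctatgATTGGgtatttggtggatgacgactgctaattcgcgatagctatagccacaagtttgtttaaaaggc
Hist1h3i (chr13:21783418-21783517, minus strand): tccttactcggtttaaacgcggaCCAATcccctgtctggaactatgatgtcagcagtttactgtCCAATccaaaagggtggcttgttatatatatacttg
Hist1h1c (chr13:23738687-23738786, plus strand): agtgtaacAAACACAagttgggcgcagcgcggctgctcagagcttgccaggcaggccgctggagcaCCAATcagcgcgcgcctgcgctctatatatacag
All 5 hold CCAAT or its reverse complement ATTGG in this stretch. TATAAA is in the windows of Hist1h1a and Hist1h1b but not of the other 3, and AAACACA in those of Hist1h1b and Hist1h1c.

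Histone genes were detected in every library. Between 58 and 69 of the 70 had reads in the sorted libraries and 66 to 70 in the crypts, and together they took 0.121% to 0.428% of the reads of a sorted library and 0.264% to 0.487% of a crypt library. Summed over the 70 genes, the level was 69046 and 85569 CP20M in the Epcam+ve controls. It was 30278 and 24298 CP20M in the GFP+ve heterozygous pools and 27624 and 28394 in the GFP+ve knockout pools. The 4 GFP+ve pools thus lay close together and below all other libraries of the series.

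In crypts the summed level was 74026 and 64200 CP20M in WT mice and 68712, 53986, 58433, 72352 and 52835 in KO mice. The eControl crypts had 89908, 56166 and 69812 CP20M and the eKO crypts 97471 and 59045. These groups overlapped one another and also the Epcam+ve controls. In both groups of the Vil1Cre/+-Olfr78fx line, the mouse numbered 1 had the highest sum.

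**Figure D1:**
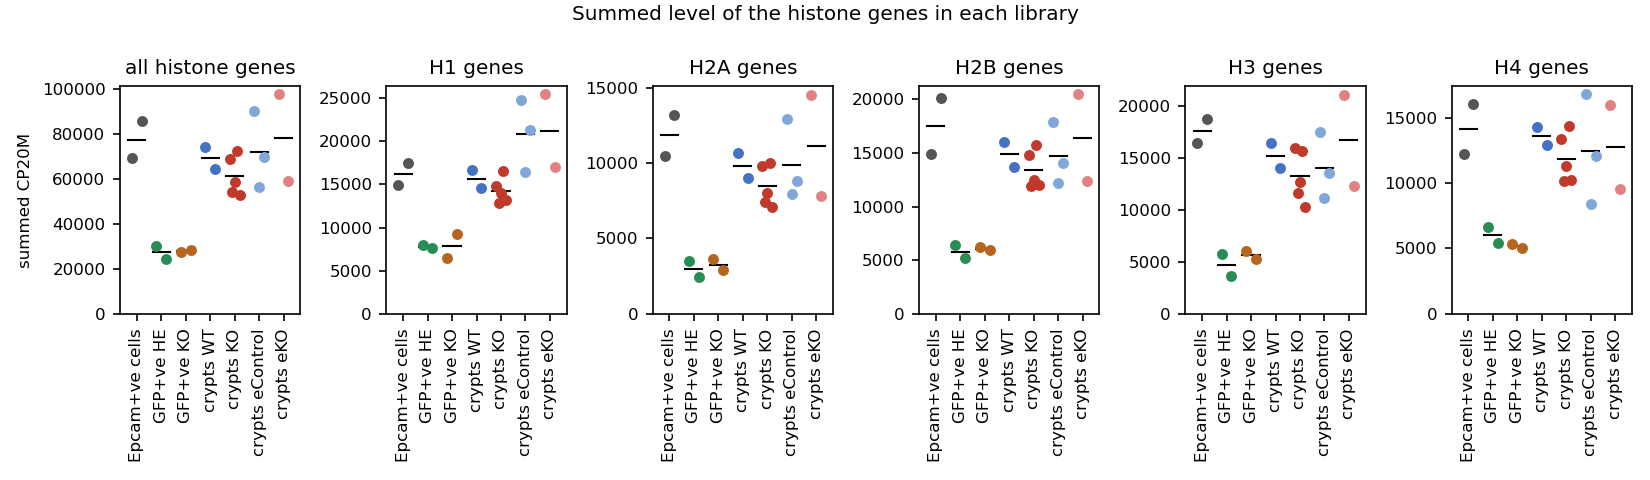
Summed level of all 70 histone genes and of each class in each library, in CP20M on a linear axis from 0. Each point is a library and each bar the mean of its group. The 4 GFP+ve pools sit between 24298 and 30278 for all genes, below the lowest of the other libraries (52835).

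The classes contributed unequal shares. H1 genes made up 20.4% to 21.7% of the histone sum in Epcam+ve controls, 26.2% and 31.2% in the heterozygous pools and 23.2% and 32.5% in the knockout pools. In crypts of the Olfr78-GFP line the H1 share was 21.6% to 25.0%, and in those of the Vil1Cre/+-Olfr78fx line it was 26.1% to 30.4%, without overlap between the lines. The lines were deposited in separate tables, so this last difference cannot be told apart from a difference between the tables.

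Per kilobase of annotated exon, the highest mean level in both sorted cells and crypts was that of Hist2h2bb, an H2B gene of the Hist2 cluster, with 4164 and 6982 CP20M per kb. The model of Hist2h2bb has only 381 bases and no stem-loop match, which raises this value, and 45.4% of its 100-base stretches are shared. Without scaling to length its means were 1586.5 and 2660 CP20M, below those of Hist1h1c (3505 and 6056). Hist1h1c, which makes the linker histone H1.2, was second in both, at 2247 and 3882 CP20M per kb, and in sorted cells it stood barely above Hist1h4h (2243). The long model of Hist1h1d lowered it to 262 and 511 CP20M per kb. At the other end, 17 members had no read in at least 1 library. The testis-specific linker histone gene Hist1h1t had at most 27 CP20M in any library, and the testis-specific Hist1h2aa had reads in 3 of the 18.

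**Figure D2:**
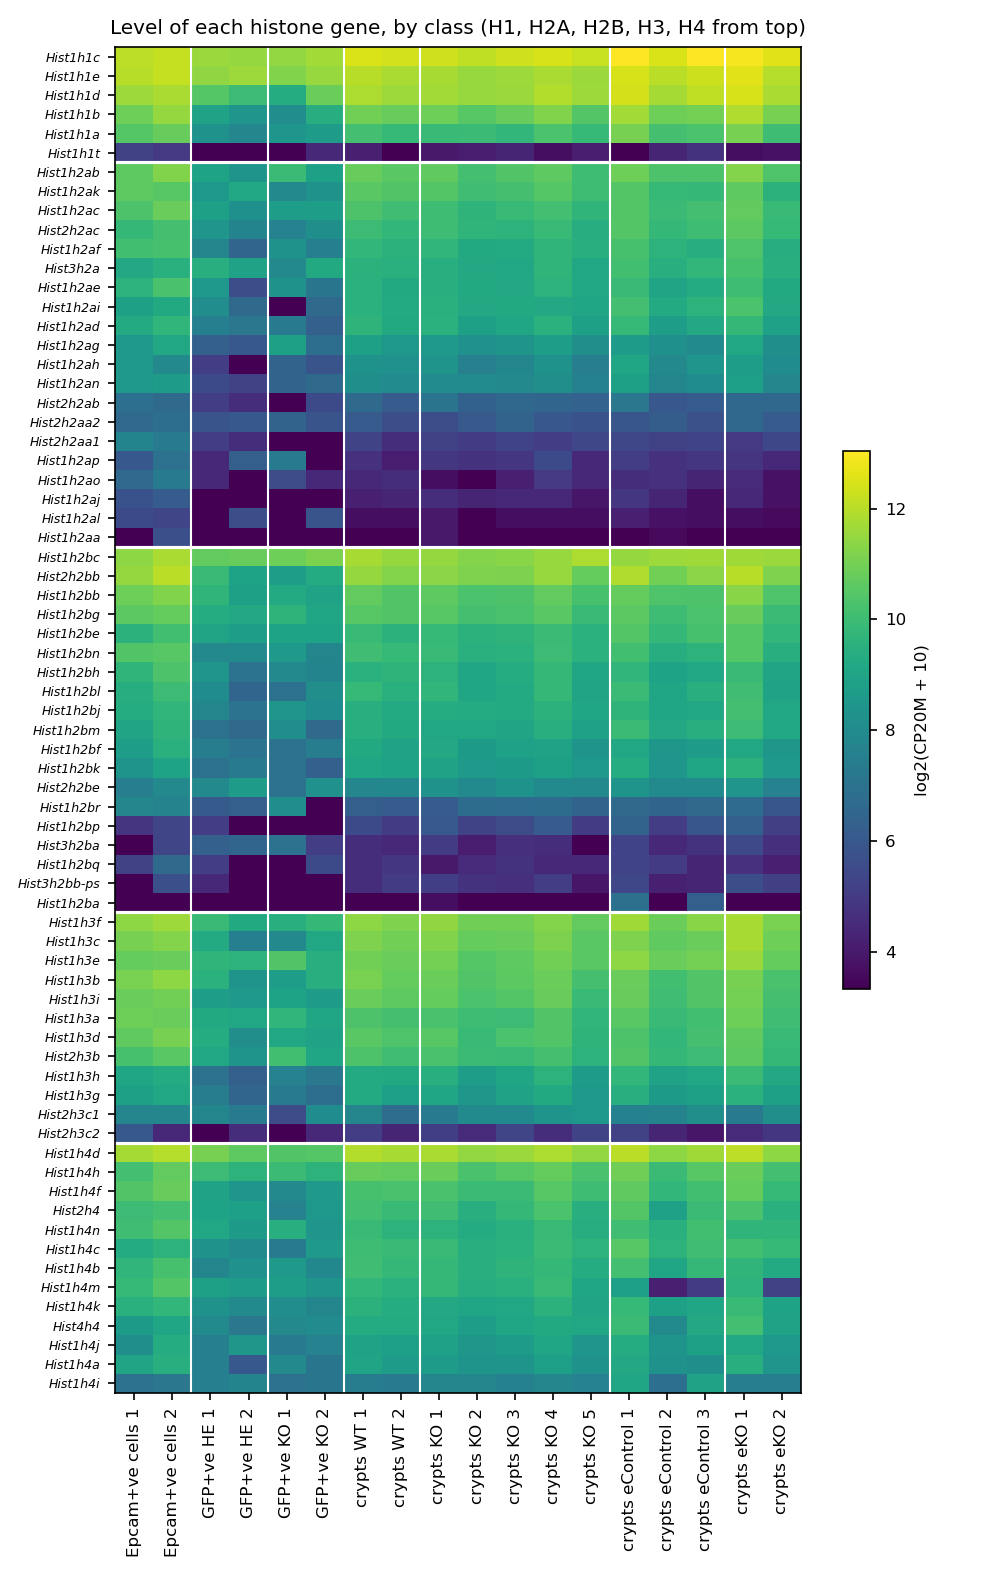
Level of each of the 70 histone genes (rows, by class and by mean level) in each of the 18 libraries (columns, grouped), as log2(CP20M + 10). The columns of the GFP+ve pools are darker than the rest for most genes, and Hist1h4m, Hist1h4i and Hist1h2ba stand out in single crypt libraries.

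Comparing GFP+ve cells of HE mice with Epcam+ve cells asks how the receptor-expressing cells differ from the epithelium at large. Nearly all measured histone genes were lower in the GFP+ve heterozygous pools, and the mean summed level was 27288 against 77308 CP20M, or 2.83-fold lower. The fold was largest for H2A (3.95) and H3 (3.73), intermediate for H2B (3.03), and smaller for H4 (2.34) and H1 (2.09). It was 2.85 for the Hist1 genes and 3.13 for Hist2, while the 3 genes of Hist3 had 573 and 793 CP20M in the Epcam+ve controls and 750 and 562 in the heterozygous pools, a ratio of 0.960. Most of the Hist3 level came from 1 gene, Hist3h2a, at 573 and 720 CP20M in the Epcam+ve controls and 668 and 481 in the heterozygous pools.

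Of the 70 genes, 62 had at least 40 CP20M in 2 of the 4 libraries and were tested. The thresholds of the study for this contrast were an adjusted p under 0.001 and a log2 fold change beyond 2, and limma on log2(CP20M + 10) gave 4 histone genes past both, all lower, where 0.171% of all 16355 genes tested were called lower. edgeR on the recovered reads called 15, also all lower (1.05% of all genes). At an adjusted p under 0.05 without the fold threshold, a count chosen after seeing the data, 50 of the 62 were lower and none higher, against 11.3% of all genes lower. The log2 fold change was below 0 in 59 of 62 histone genes and in 52.3% of all genes, and its median was -1.90 against -0.05. Both heterozygous pools lay below both Epcam+ve controls in 55 of the 62 (33.1% of all genes), and in 53 so did all 4 GFP+ve pools (24.2% of all genes).

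The 4 genes past both thresholds were 2 linker histone genes, 1 H2B gene and 1 H3 gene, all in the Hist1 cluster. Hist1h2bn (chr13:21754123-21754503), an H2B gene, was at 1341 and 1470 CP20M in the Epcam+ve controls and at 231 and 241 in the heterozygous pools. Its log2 fold change was -2.52 ± 0.26 (SE, limma adjusted p = 0.000587). The pools were far apart from the controls and close to each other.

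Hist1h3i (chr13:21782960-21783370), an H3 gene, was at 1806 and 2024 CP20M in the Epcam+ve controls and at 426 and 361 in the heterozygous pools, a log2 fold change of -2.26 ± 0.24 (limma adjusted p = 0.000594). Over 50% of the 100-base stretches of both Hist1h2bn and Hist1h3i also occur in other genes. The H1 genes Hist1h1a and Hist1h1b share none. Hist1h1a (chr13:23763666-23764406), which makes H1.1, went from 1404 and 1747 CP20M to 300 and 214, a log2 fold change of -2.58 ± 0.29 (limma adjusted p = 0.000795). Hist1h1b (chr13:21779883-21780625), which makes H1.5, was at 1922 and 2877 CP20M against 472 and 334, a log2 fold change of -2.54 ± 0.29 (limma adjusted p = 0.000838).

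The other linker histone genes differed less. Hist1h1d, which makes H1.3, was at 3174 and 3575 CP20M in the Epcam+ve controls and at 1404 and 1014 in the heterozygous pools (log2 fold change -1.49 ± 0.22). Hist1h1c had 4327 and 4654 CP20M against 3027 and 2907, a log2 fold change of -0.60 ± 0.17 (limma adjusted p = 0.0361). Hist1h1e, which makes H1.4, had 4103 and 4613 CP20M against 2739 and 3121, with a log2 fold change of -0.57 ± 0.18 (limma adjusted p = 0.0497). Thus in all 5 expressed H1 genes both heterozygous pools lay below both Epcam+ve controls. The differences ranged from -0.57 to -2.58 on the log2 scale, and whether they differ from one another was not tested.

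Among H2A genes, all 18 tested had a log2 fold change below 0 (median -2.21) and 14 passed an adjusted p of 0.05. Hist1h2ab, 1 of the better expressed, was at 1574 and 2363 CP20M in the Epcam+ve controls and at 484 and 321 in the heterozygous pools (log2 fold change -2.26 ± 0.30). Hist1h2ah had the lowest value, -3.98 ± 0.74, with 349 and 227 CP20M against 24 and 0. A count of 0 in that pool allows up to 40 CP20M, and 87.9% of the 100-base stretches of this gene occur elsewhere.

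In the H2B class 13 of 15 were below 0 (median -1.79) and 12 passed an adjusted p of 0.05. Hist2h2bb was at 2879 and 4161 CP20M in the Epcam+ve controls and at 944 and 494 in the heterozygous pools, a log2 fold change of -2.32 ± 0.32. Hist1h2bc, an H2B gene known to make polyadenylated transcripts too, had 2673 and 3617 CP20M against 1657 and 1747, a log2 fold change of -0.87 ± 0.21 (limma adjusted p = 0.0192). Hist2h2be, also known for polyadenylated transcripts, did not pass: its level was 170 and 227 CP20M against 231 and 401, which gave 0.61 ± 0.43 on the log2 scale (limma adjusted p = 0.350). Hist3h2ba, named for its values, had the highest log2 fold change of all members, 2.08 ± 0.81 (limma adjusted p = 0.0991), but rested on 0 and 31 CP20M against 70 and 81.

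H3 genes were below 0 in all 11 tested (median -2.05), and 10 passed an adjusted p of 0.05. Hist1h3f was at 2709 and 3103 CP20M in the Epcam+ve controls against 956 and 587 in the heterozygous pools, a log2 fold change of -1.94 ± 0.26. Hist1h3e was at 1690 and 1809 CP20M against 817 and 774, a log2 fold change of -1.13 ± 0.21. The exception was Hist2h3c1, with 206 and 216 CP20M against 208 and 147 (log2 fold change -0.26 ± 0.44).

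H4 genes had the smallest median (-1.30), with 12 of 13 below 0 and 9 past an adjusted p of 0.05. Hist1h4d, the most abundant, was at 3361 and 3935 CP20M in the Epcam+ve controls and at 2095 and 1561 in the heterozygous pools, a log2 fold change of -1.0 ± 0.21 (limma adjusted p = 0.0115). Hist4h4, the third gene known for polyadenylated transcripts, had 385 and 524 CP20M against 242 and 134 and did not pass (log2 fold change -1.27 ± 0.42, limma adjusted p = 0.0599). For Hist1h4i the values were 117 and 134 CP20M against 173 and 201, with a log2 fold change of 0.54 ± 0.46. Together, Hist3h2ba, Hist2h2be and Hist1h4i were the 3 genes in which both heterozygous pools lay above both Epcam+ve controls, where 30.4% of all genes did so.

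**Figure D3:**
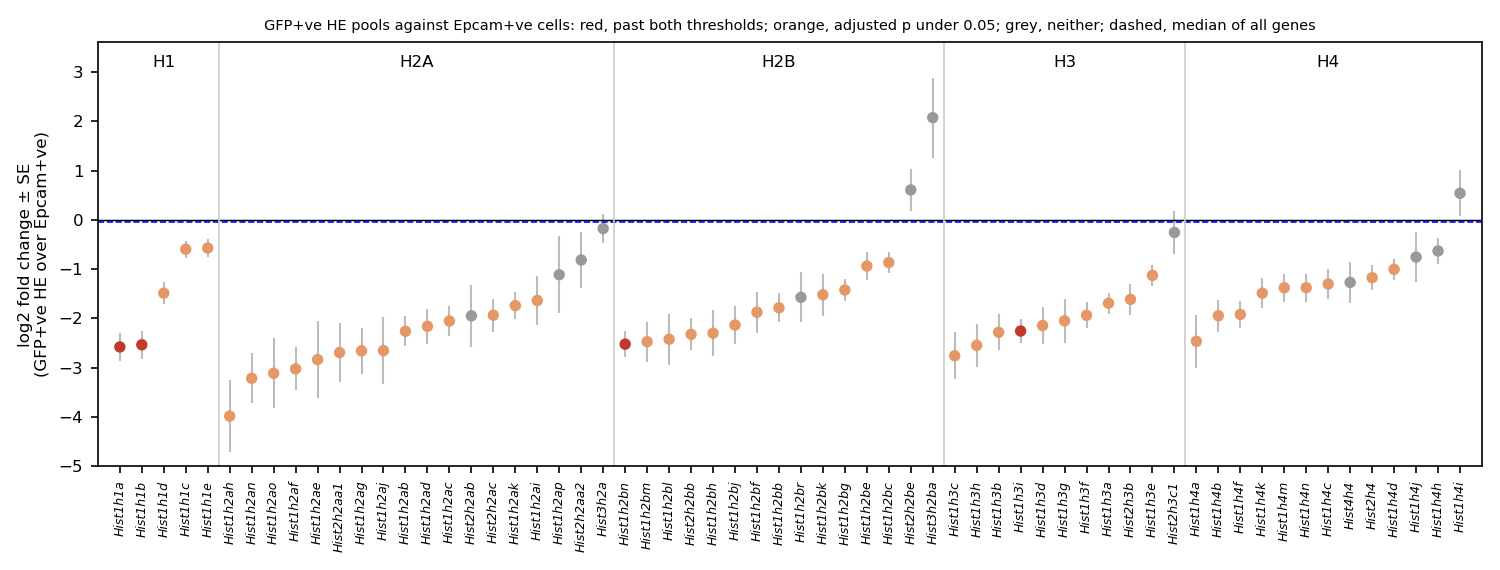
Log2 fold change ± SE of the 62 tested histone genes between GFP+ve heterozygous pools and Epcam+ve controls (n = 2 and 2), by class. Red points pass both thresholds (4 genes), orange points an adjusted p under 0.05 only, grey points neither. The dashed line is the median of all 16355 genes (-0.05), and 59 of the 62 points lie below 0.

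The Epcam+ve controls are 1 WT mouse and the pools are HE mice, so cell type, genotype and animal cannot be told apart, and in bulk RNA fewer cells in S phase and less histone RNA per cell cannot be told apart either. The number of calls past both thresholds moved with single libraries, from 0 without the second Epcam+ve control to 29 without the first heterozygous pool, while the median stayed between -2.19 and -1.64.

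The genes of S phase and division moved the same way. Of 18 in the list, all had a log2 fold change below 0 (median -2.27), against 52.3% of all genes. At an adjusted p of 0.05, 16 of the 18 were lower, against 11.3% of all genes. The summed level of the list was 36252 and 38589 CP20M in the Epcam+ve controls, 5944 to 10526 in the heterozygous pools and 8982 to 11861 in the knockout pools. Hells, a chromatin remodeller of replicating cells, was at 1314 and 1398 CP20M in the Epcam+ve controls against 185 and 174 in the heterozygous pools, a log2 fold change of -2.85 (limma adjusted p = 0.000436). Mcm6, a subunit of the replicative helicase, was at 1958 and 2055 CP20M against 426 and 507, a log2 fold change of -2.09 (limma adjusted p = 0.000721).

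Markers of other cell types differed as well. The 4 enteroendocrine markers were all called higher, with a summed level of 843721 and 1099468 CP20M in the heterozygous pools against 12514 and 12872 in the Epcam+ve controls, while 3 of 4 colonocyte markers, 3 of 4 goblet cell markers and 2 of 4 stem cell markers were lower at an adjusted p under 0.05. The other colonocyte marker, Krt20, was called higher, with 24878 and 31364 CP20M in the heterozygous pools against 4434 and 3822 in the Epcam+ve controls. Their part in the histone result was not tested.

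Factors that handle histones had medians nearer to 0. Among 12 chaperones and assembly factors the median log2 fold change was -0.85 and 6 passed lower at an adjusted p under 0.05, among them both large subunits of the assembly factor CAF-1: Chaf1a was at 671 and 596 CP20M against 127 and 121, and Chaf1b at 358 and 288 against 35 and 54. Among the 11 replacement variants the median was -0.21, with 3 lower and 1 higher. The replacement H3 gene H3f3b had 5149 and 5425 CP20M in the Epcam+ve controls and 5455 and 5868 in the heterozygous pools (log2 fold change 0.10, limma adjusted p = 0.710). H2afx, the variant phosphorylated at DNA breaks, fell from 1082 and 1059 CP20M to 311 and 161, and Cenpa, the H3 variant of centromeres, from 501 and 535 to 196 and 54. The 1 variant that rose was H2afy2, a macroH2A gene, from 18 and 11 CP20M to 104 and 174.

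Of 12 factors that transcribe, process or degrade histone mRNA, 2 were lower at an adjusted p under 0.05 and the median log2 fold change was -0.32. Slbp, the stem-loop binding protein, was at 1502 and 1295 CP20M against 840 and 627, a log2 fold change of -0.93 (limma adjusted p = 0.0264). Cstf2, a subunit of the cleavage machinery, was the other, at -1.05 (limma adjusted p = 0.0105). Npat was at 823 and 771 CP20M against 1036 and 987, a log2 fold change of 0.34 (limma adjusted p = 0.313).

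**Figure D4:**
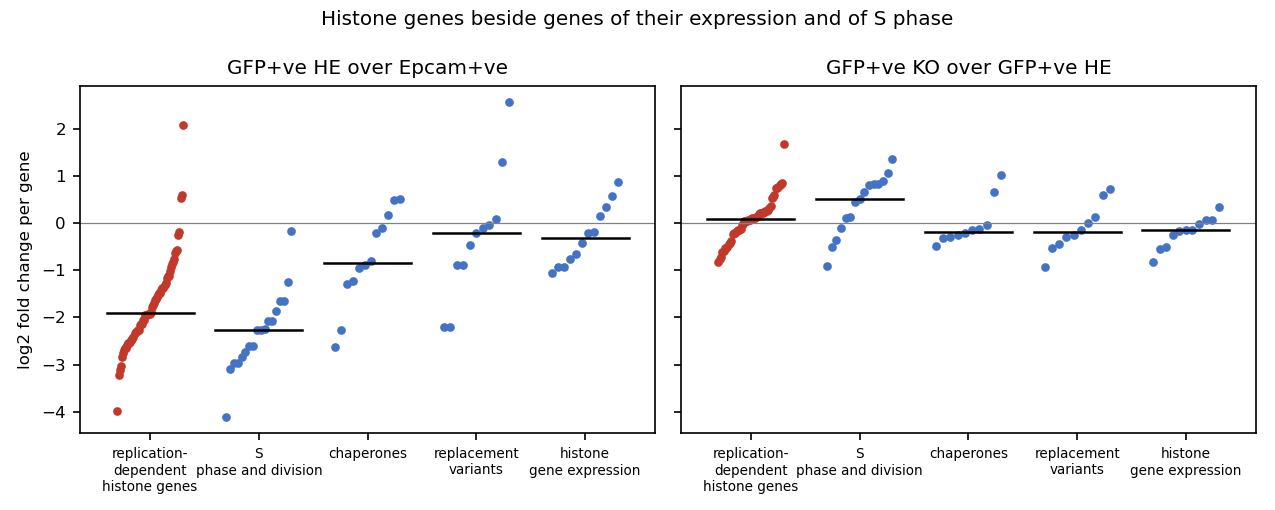
Log2 fold change of each tested gene in 5 lists, for GFP+ve heterozygous pools over Epcam+ve controls (left) and GFP+ve knockout pools over heterozygous pools (right), n = 2 per group. Bars are medians. On the left the medians are -1.90 for histone genes and -2.27 for S phase genes, against -0.85, -0.21 and -0.32 for the other lists, and on the right they are 0.09 and 0.52.

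In GFP+ve cells, loss of Olfr78 was examined by setting the knockout pools against the heterozygous pools, which are the same HE libraries as above. The histone genes did not separate these groups: the mean summed level was 28009 CP20M in KO and 27288 in heterozygous pools, a ratio of 1.03. By class the ratio ran from 0.862 for H4 to 1.19 for H3. With 51 histone genes above 40 CP20M in all 4 pools, limma called 0 at an adjusted p under 0.05, as it did of all 11892 genes (0%). edgeR called 0 histone genes as well, and 1 had an unadjusted p under 0.05 with limma, higher in KO (0.959% of all genes).

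The median log2 fold change of the 51 genes was 0.09 against -0.18 for all genes, and another scaling raised the median of all genes by 0.136. Without the second heterozygous pool the histone median was -0.20 and without the first it was 0.23, so 1 library decides its sign. The gene with the unadjusted p under 0.05 was Hist1h2ag, an H2A gene with 451 and 105 CP20M in the knockout pools against 70 and 54 in the heterozygous pools. The 451 CP20M come from the shallow knockout pool, and 76.2% of the 100-base stretches of the gene occur elsewhere.

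The study itself used means that differ by more than 2 times the average SD, with a ratio of the means beyond 1.5-fold. By that criterion 2 histone genes were higher and 2 lower in knockout pools, where 3.23% of all genes were higher and 9.98% lower. The higher were Hist1h2bj, at 338 and 256 CP20M in KO and 208 and 121 in heterozygous pools, and Hist1h3h, at 188 and 140 against 116 and 67. The lower were Hist1h4i, at 113 and 128 against 173 and 201, and Hist2h4, at 188 and 349 against 484 and 441. With 2 pools a group this criterion has no error rate. Of the S phase list, 11 of 15 tested genes had a log2 fold change above 0 (median 0.52), against 35.1% of all genes. None of the 15 passed an adjusted p of 0.05 with limma. The criterion of the study was not counted for this list. The study reported cell division and DNA replication among the processes raised in GFP+ve KO cells.

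In whole crypts of the Olfr78-GFP line, KO mice had slightly less histone RNA than WT mice on average, 61264 against 69113 CP20M, but the groups overlapped, with KO values from 52835 to 72352 and WT values of 64200 and 74026. The thresholds for crypts were an adjusted p up to 0.2 with a fold change beyond 1.5. Of 58 histone genes tested, limma called 1, higher in KO, where 9.48% of all 15975 genes were called and 7.95% were called higher. By the adjusted p alone, without the fold threshold, 5 of the 58 passed, as did 4256 of all 15975 genes. The log2 fold change was below 0 in 51 of 58 (46.6% of all genes), with a median of -0.19 against 0.03 for all genes, and leaving out single mice moved it between -0.28 and -0.10.

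The called gene was Hist2h3c1, an H3 gene of the Hist2 cluster. It was at 203 and 102 CP20M in WT mice and at 147, 243, 233, 316 and 356 in KO mice, so the groups overlapped. Its log2 fold change was 0.74 ± 0.30 (limma adjusted p = 0.149), and edgeR gave an adjusted p of 0.151. All 100-base stretches of its transcript also occur in other genes. Without the second WT mouse its log2 fold change was 0.28, and it was no longer called.

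Abundant histone genes showed small differences, and the values of the groups overlapped. Hist1h1e was at 4037 and 3544 CP20M in WT crypts and at 3496, 2967, 3104, 3581 and 3031 in KO crypts. Hist1h1c was at 5822 and 5262 CP20M in WT crypts and at 5156, 4431, 5208, 5618 and 4767 in KO crypts, a log2 fold change of -0.14 ± 0.10 (limma adjusted p = 0.411). Hist2h2bb was at 2914 and 2408 CP20M in WT and at 2632, 2258, 2250, 2985 and 1723 in KO crypts, a log2 fold change of -0.18 ± 0.17. Hist1h1a, called in sorted cells, was at 1124 and 894 CP20M in WT and at 950, 972, 862, 1236 and 892 in KO crypts (log2 fold change -0.04 ± 0.14).

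Among the factors of histone mRNA, 1 of 12 was called in KO crypts, where 9.48% of all genes were called. Zfp473, a zinc finger protein of the U7 particle that cuts histone transcripts, was at 27 and 25 CP20M in WT crypts and at 61, 88, 74, 56 and 68 in KO crypts (log2 fold change 1.13, limma adjusted p = 0.0178). Its KO values lay above both WT values without overlap, as in 18.2% of all genes. In the Vil1Cre/+-Olfr78fx line it was at 29, 44 and 38 CP20M in eControl and at 29 and 41 in eKO crypts, and the groups overlapped. No gene of the S phase list, the chaperones or the replacement variants was called.

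In the Vil1Cre/+-Olfr78fx line, where Olfr78 is lost in the epithelium alone, the mean summed level was 78258 CP20M in eKO and 71962 in eControl crypts, with 1 eKO mouse above and 1 within the range of the controls. limma called 0 of 59 histone genes, as of all 15401 genes (0%), edgeR called 0, and none had an unadjusted p under 0.05. The median log2 fold change was 0.11 against 0.03 for all genes, with 46 of 59 genes above 0 (57% of all genes). It was -0.28 without the first eKO mouse and 0.55 without the second, the mouse whose tag and title differ.

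When both lines were fitted together with the line as a term, limma called 0 of 59 histone genes and 0.0243% of all genes, with a median log2 fold change of -0.05 among histone genes. That median was 0.06 without the second eKO mouse and 0.10 with that mouse among the controls. edgeR called 0 as well (0.0547% of all genes), and 0 had an unadjusted p under 0.05. Whether the effect of genotype differed from line to line was tested by an interaction term, which was called at an adjusted p of at most 0.2 in 0 histone genes and in 0.0304% of all genes with all mice. edgeR called 0 (0.0304%), and 1 had an unadjusted p under 0.05 with limma, with the lower effect in the Vil1Cre/+-Olfr78fx line (4.86% of all genes). Without the second eKO mouse, 30 of 59 histone genes passed, 29 of them with the higher effect in the Vil1Cre/+-Olfr78fx line, where 26.3% of all genes passed. That 1 library therefore decides this call, and without it only 1 eKO mouse is left.

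Several members differed between single crypt libraries of the Vil1Cre/+-Olfr78fx line, and they were singled out after their values were seen. Hist1h4m, an H4 gene, was at 530 to 921 CP20M in all 7 crypts of the Olfr78-GFP line. In the other line it was at 441, 8 and 22 CP20M in eControl mice and at 762 and 28 in eKO mice. Its neighbour Hist1h4n was even, with 1063, 718 and 1075 CP20M in eControl and 803 and 804 in eKO mice. In Hist1h4m 88.1% of the 100-base stretches are shared, so its reads cannot be kept apart from those of its copies with certainty.

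Hist1h4i was at 524, 106 and 481 CP20M in eControl crypts and at 167 and 168 in eKO crypts. In the Olfr78-GFP line it was at 166 and 152 CP20M in WT and at 205, 211, 183, 217 and 188 in KO crypts. All KO values lay above both WT values there, as in 18.2% of all genes, though the gene was not called. Hist1h2ba, the testis-specific H2B gene, was at 110, 0 and 67 CP20M in eControl crypts and at 0 in both eKO crypts. In the Olfr78-GFP line it was at 0 in all crypts but 1 KO mouse, with 3. A count of 0 allows up to 5.46 to 9.72 CP20M in the crypts where it was listed at 0. Both genes were thus high in eControl mice 1 and 3, which share 1 genotype tag, while eControl mouse 2 carries the tag WT/HO. The germ cell genes Tnp1, Prm1 and Prm2 were at 0 in all 5 crypts of that line.

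**Figure D5:**
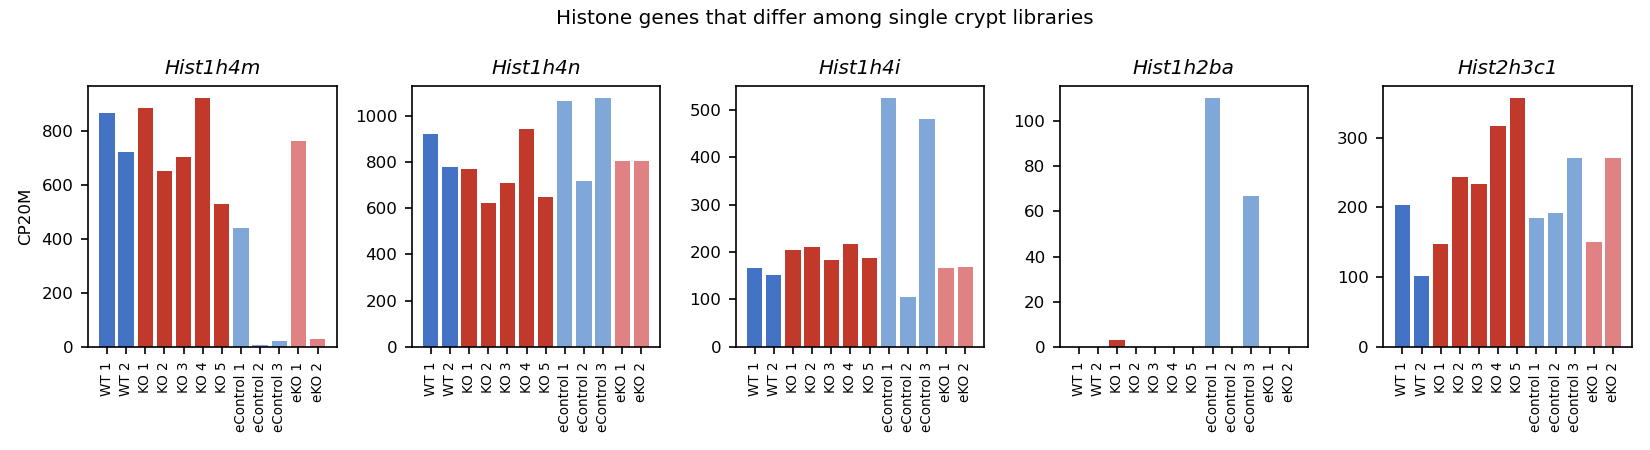
Level in CP20M of 5 histone genes in each of the 12 crypt libraries, with each axis starting at 0. Hist1h4m is near 0 in 3 libraries of the Vil1Cre/+-Olfr78fx line, Hist1h4i and Hist1h2ba are high in eControl mice 1 and 3, and Hist2h3c1 is 102 to 203 in WT and 147 to 356 in KO crypts.

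Sorted Epcam+ve cells and whole crypts of WT mice were compared to place the sorted controls. The summed histone level was 77308 CP20M in Epcam+ve controls and 69113 in crypts, a ratio of 1.12, with overlap. Of 61 histone genes tested, limma called 0 at an adjusted p under 0.001 and a log2 fold change beyond 2, where 0.752% of all genes were called. edgeR called 2 (2.13% of all genes), and at an unadjusted p under 0.05 limma gave 15 higher (8.96% of all genes) and 3 lower (29.5%). The median log2 fold change was 0.19 against -0.26 for all genes, and another scaling raised the median of all genes by 0.195.

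The 2 genes called by edgeR were H2A genes whose sequence is largely shared. Of their 100-base stretches, 88.3% in Hist2h2aa1 and 92.7% in Hist1h2ao occur in other genes. Hist2h2aa1 was at 197 and 155 CP20M in Epcam+ve controls against 30 and 14 in WT crypts, a log2 fold change of 2.58 ± 0.42 (limma adjusted p = 0.00482). Hist1h2ao was at 90 and 155 CP20M against 11 and 14, a log2 fold change of 2.52 ± 0.46 (limma adjusted p = 0.00739). In all, 9 histone genes passed an adjusted p of 0.05, all higher in the Epcam+ve controls (6.07% of all genes). All 18 genes of the S phase list had a log2 fold change above 0 (median 0.53), against 30.5% of all genes. At an adjusted p of 0.05, 8 of the 18 were higher, against 6.07% of all genes. Both leukocyte markers tested were lower in the sorted cells (median -2.69). Of 3 stromal markers tested, 2 were lower (median -3.08 over the 3). The other, Col1a1, was at 188 and 155 CP20M in the Epcam+ve controls against 307 and 86 in WT crypts. The part of these markers in the histone values was not tested.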

How the data were processed

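Samples were grouped by their titles into 7 groups. The authors made libraries with the Ovation Solo kit, mapped reads with STAR to GRCm38 and counted genes of Ensembl release 90 with HTSeq, with counting options not given in the sources used here. For sorted cells and crypts of the Olfr78-GFP line the authors deposited a signal, and for the other crypts a score, both made by scaling each library to 20000000 reads and rounding values up (CP20M). Whole reads were recovered for 99.89% to 99.99% of values, and these reads were used for edgeR and DESeq2 as alternatives. Where edgeR and limma both ran on sorted HE and Epcam+ve cells, edgeR called 746 genes in all and limma 287.

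Genes with at least 40 CP20M (2 CPM) in 2 samples, or in all 4 pools for KO against HE, were tested with limma 3.58.1 (trend) on log2(CP20M + 10), so fold changes of low genes are understated. Adjusted p-values (Benjamini-Hochberg) cover all genes tested. edgeR 4.0.16 (quasi-likelihood), DESeq2 1.42.0, R 4.3.3, Python 3.11.15, pandas 2.3.3 and matplotlib 3.10.9 were used. The tests were tested on simulated data. Alternatives were pseudocounts of 1 and 40, no filter, no trend, median-of-ratios scaling, a replicate block and each library left out. Positions and lengths came from GENCODE vM21 (GRCm38), joined by gene ID, promoters from RefSeq.

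The members and gene lists were chosen with earlier results of these data known. Named genes were up to 10 members past the thresholds per direction, the 8 with the highest mean level in sorted cells and in crypts, the H1 genes and Hist1h2bc, Hist2h2be and Hist4h4. Genes chosen after their values were seen were named too (Hist1h2ab, Hist1h2ag, Hist1h2ah, Hist1h2ao, Hist1h2ba, Hist1h2bj, Hist1h3h, Hist1h4h, Hist1h4i, Hist1h4m, Hist1h4n, Hist2h2aa1, Hist2h4, Hist3h2a, Hist3h2ba). p-values between the Epcam+ve controls and others measure a spread that may be technical. Floors cover counting error only.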

Additional observations from a re-analysis of the deposited data

Results flagged for a closer look

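Among 33 sets of values from groups of 4 to 10 libraries, 1 had a library far from the others. It was Hist1h2ba in KO crypts, at 3 CP20M in the first mouse (1 read is worth 2.76 CP20M there) and 0 in the other 4. Chance alone would mark about 1 in 20 such sets.

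Hist1h4i moved in opposite directions in the crypts of the lines. Each of the 5 KO mice lay above the mean of the WT mice, by 41.8 CP20M on average, and both eKO mice lay below the mean of the eControl mice, with a difference of -202.8 CP20M. This contrast of directions was not tested as such. The limma interaction term for this gene gave an adjusted p of 0.575. The eControl mean rests on 524 and 481 CP20M in eControl mice 1 and 3, while eControl mouse 2 stood at 106, below both eKO mice.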

How the results depend on the processing

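Of the summary results, 197 values under an alternative stayed within the spread between replicates, or for counts within 1.5 times, and 27 moved. No test stands behind the medians and ratios, and 7 medians and 4 ratios changed side of 0 or of 1. For eKO against eControl crypts the median of 0.11 became -0.28 without the first eKO mouse and -0.06 without the second eControl mouse. For both lines together the median of -0.05 became 0.02 to 0.06 without the first WT, the first eControl or the second eKO mouse, and 0.10 with the last among the controls, an alternative added after seeing the data. For GFP+ve HE pools against Epcam+ve controls, the 4 calls became 0 with a pseudocount of 1 and without the trend, 8 with a pseudocount of 40, 15 with edgeR, 13 with DESeq2 and 9 with the replicate block. Leaving out single libraries gave 0 to 29 calls and a median of -2.19 to -1.64. The 50 genes lower at an adjusted p under 0.05 became 31 without the trend and 21 to 52 with single libraries left out, lowest without the second Epcam+ve control. Among the 38 tested genes with at most 50% shared stretches, an alternative added after seeing the data, 2 were called, 30 passed an adjusted p of 0.05 and the median was -1.76. For KO against HE pools the median of 0.09 ran from -0.20, without the second HE pool, to 0.23 with single libraries left out, and was 0.24 with median-of-ratios rescaling. In KO against WT crypts the 1 call was lost (0) without the filter, without the trend, with the replicate block and without the second WT or the fourth KO mouse (range 0 to 1). For both lines together the range was 0 to 1, with 1 call without the first eKO mouse, where 6.92% of all genes were called. For Epcam+ve controls against WT crypts, edgeR, DESeq2 and the replicate block each gave 2 calls, and the edgeR median was 0.44. The difference between lines gave 0 to 30 calls with mice left out, 2 of them without the second eControl mouse, and 40 with the second eKO mouse counted as a control (32.9% of all genes), an alternative added after seeing the data. The ratio of summed levels ranged from 0.314 to 0.395 for HE over Epcam+ve, 0.925 to 1.15 for KO over HE, 0.828 to 0.954 for KO over WT crypts and 0.821 to 1.35 for eKO over eControl crypts, which was 1.42 with the second eKO mouse among the controls. Of single genes, 20 values lost their call and 43 kept it. The cause was not tested for any of these.

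Same-numbered libraries did not deviate together in the sorted cells (r from -0.244 to 0.0297) or in KO and WT crypts (0.0614 and -0.103), and in the eKO line r was 0.589 and 0.363 over only 2 pairs, so the numbers were not taken as a pairing. The replicate block changed no call beyond those given. With the pool numbers crossed, KO against HE gave 0 histone genes and 85 genes in all, against 0 with the block as numbered. Depth limits the KO comparison, since 1 read in the first KO pool is worth 37.5 CP20M.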
